A study of Homo sapiens with 6 samples.

Results

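The genes described here encode the plasma membrane and lysosomal carriers of amino acids and related neurotransmitters, taken as every gene symbol of the expression table that belongs to the solute carrier families SLC1, SLC3, SLC6, SLC7, SLC36, SLC38 and SLC43. This rule reads names and no measured value, and it found 59 of the 26255 symbols. The families were, however, chosen with earlier results of these data known. The families held 7, 2, 19, 13, 4, 11 and 3 genes, in that order. RNA was measured in MDA-MB-231 cells, a human triple-negative breast cancer line, that carried either the non-targeting hairpin shNT or a hairpin against GPR81 (shGPR81). GPR81 is the cell surface receptor for lactate and is encoded by HCAR1. Both hairpins were introduced with lentivirus and the cells were selected with puromycin and grown in glutamine-containing medium with serum, according to the study's methods. The study made more than 1 GPR81 hairpin line, and which of them was sequenced is not given in the sources used here. Each group had 3 libraries, and nothing in the labels says whether they came from separate cultures, so every p-value measures the spread between these libraries, which may be technical.

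Cells take up amino acids through carriers that differ in what drives them. The glutamate carriers of SLC1 and most SLC6 and SLC38 proteins use the sodium gradient, and some SLC36 proteins use protons. Most light chains of SLC7 exchange 1 amino acid for another after pairing with a heavy chain of SLC3. In cancer cells the exchangers SLC1A5 (ASCT2), which carries glutamine, SLC7A5 (LAT1), which carries leucine, and SLC7A11 (xCT), which imports cystine and exports glutamate, are the members most often studied. Many of the other members serve the kidney, the intestine or the nervous system.

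HCAR1 was low and its levels overlapped between the groups. It was read at 0.968, 1.02 and 1.36 FPKM (fragments per kilobase of transcript, scaled to the size of the library) in the shNT libraries and at 0.978, 0.891 and 0.396 FPKM in the shGPR81 libraries. The log2 fold change was -0.57 (SE 0.31, limma, Benjamini-Hochberg adjusted p = 0.380), and it lay between -0.78 and -0.22 on leaving out 1 library, with -0.22 without shGPR81 replicate 3. The recovered reads were 129 over the shNT libraries and 92 over the others, a ratio of 0.677 per unit depth (interval 0.513 to 0.892, counting error only). Since limma did not call the targeted gene, the second group is written as the libraries labelled shGPR81. The study's methods say that RT-qPCR and western blotting verified the knockdown, and those measurements are not part of these data. All 5 fixed markers of the line, VIM, CD44, AXL, CAV1 and MSN, were at 144 FPKM or more in every library. Of 5 markers fixed as low or absent in the line, ESR1, PGR and CDH1 were listed at 0. The others were read in every library, ERBB2 at 10.6 to 12.6 FPKM and GATA3 at 1.11 to 1.39 FPKM. Of 7 markers of blood, endothelium, liver and glia, CD3E and ALB were listed at 0, 4 others stayed at or under 0.136 FPKM, and CD14 was read at 2.24, 4.29 and 3.62 against 1.74, 1.14 and 1.58 FPKM (log2 fold change -1.10, SE 0.26, limma, adjusted p = 0.0562). The summed level of the 7 markers was 2.39 to 4.48 FPKM in shNT and 1.31 to 1.93 FPKM in the libraries labelled shGPR81, and its part in the results was not tested. Relative depth, recovered from the steps of the FPKM values, was between 1 and 1.07 over the 6 libraries.

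Of the 59 members, 29 reached the filter of 0.1 FPKM in at least 3 of the 6 libraries and were tested, 14 were above 0 in at least 1 library but under the filter, and 16 were listed at 0 in all 6. The tested shares differed between families. All members of SLC3 and SLC43 were tested, as were 5 of 7 in SLC1 and 7 of 11 in SLC38, but only 4 of 19 in SLC6. A gene was called when its limma p, adjusted by the method of Benjamini and Hochberg over all 14349 tested genes, was under 0.05 and its fold change was above 1.5.

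In the libraries labelled shGPR81, 3 transporter genes fell and 1 rose. The intestinal and renal neutral amino acid carrier SLC6A19, the glutamate carrier SLC1A3 and the alanine, serine and cysteine exchanger SLC1A4 were lower, and the glutamate carrier SLC1A1 was higher. Of the 29 tested members, 3 were called lower beside 1.59% of all tested genes, and 1 was called higher beside 0.955%. Irrespective of the fold change, 5 members (17.2%) had an adjusted p under 0.05, beside 5.13% of all tested genes. The groups did not overlap in 10 members (34.5%), beside 25.6% of all tested genes. SLC1A7, 1 of these 10, passed the filter only through its shNT libraries, so that its groups could not overlap. The median log2 fold change over the tested members was -0.03, with 15 below 0 and 14 above 0, and that over all tested genes was 0.01. These counts and medians describe members chosen with earlier results of these data known, so the shares are no test of the set.

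**Figure D1:**
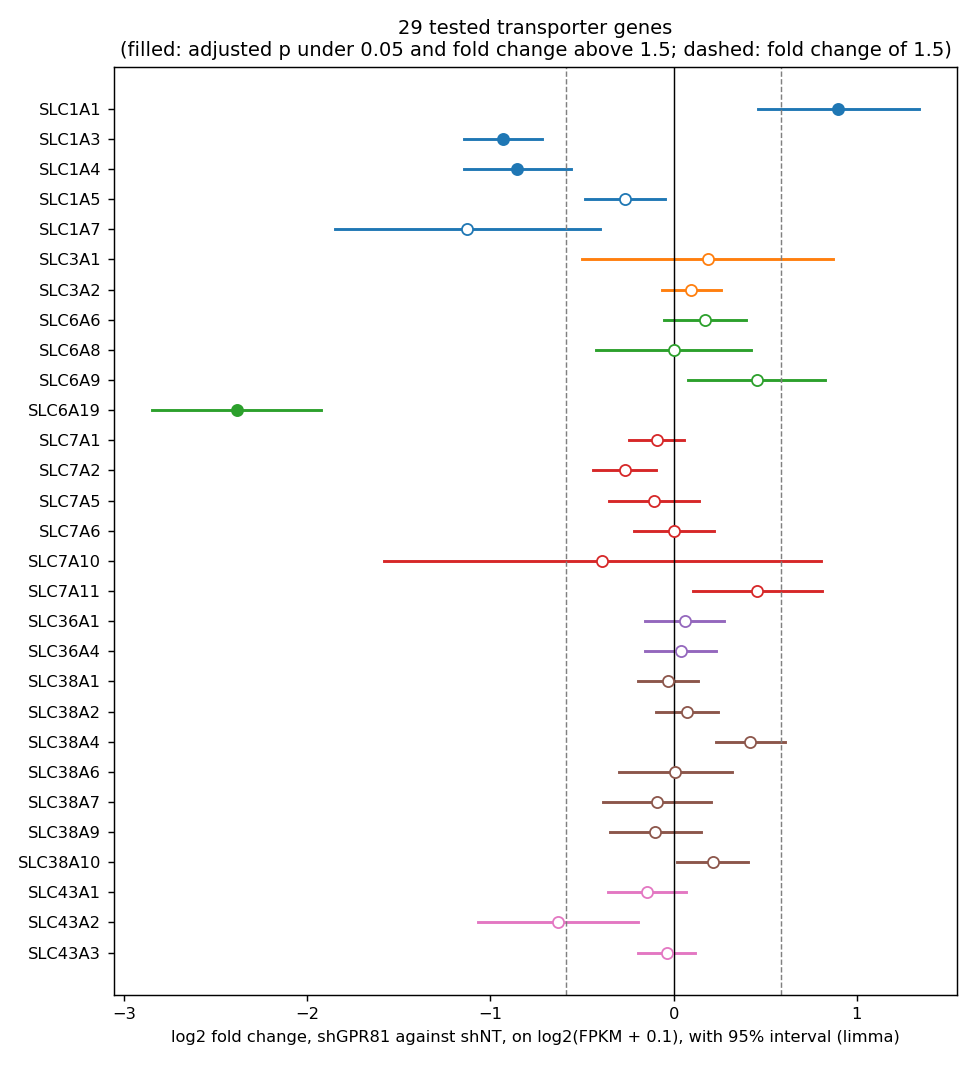
Log2 fold change (horizontal axis, libraries labelled shGPR81 against shNT, on log2(FPKM + 0.1)) of the 29 tested transporter genes (vertical axis, grouped and coloured by family) with 95% limma intervals; filled points are called and dashed lines mark a fold change of 1.5. SLC6A19 stands at -2.39, SLC1A3 and SLC1A4 lie near -0.9, SLC1A1 lies at 0.90, and most of the others lie close to 0. The uncalled SLC1A7 (-1.13, near the floor) and SLC43A2 (-0.63) also lie beyond the lower dashed line.

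The fall of SLC6A19 was the steepest among the tested members. This gene encodes a sodium-dependent carrier of neutral amino acids in the brush border of intestine and kidney, and its loss causes Hartnup disorder. It lies on chromosome 5 at 1201710 to 1225226 on the plus strand (GRCh37). The 90 bases before its start, chr5:1201620-1201709 on the plus strand, are shown because the gene had the largest change. The capitals mark the only motif searched for that was found there, a TATA box (TATAAA, gene strand) at position -30.

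SLC6A19: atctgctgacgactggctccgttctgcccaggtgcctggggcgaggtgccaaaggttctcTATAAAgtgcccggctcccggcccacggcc

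TATAAA was present in 6.80% of all 35116 RefSeq windows of 250 bases before a gene start, and in 4 of 66 windows of the members. The motif is a description and says nothing about why the gene differed. SLC6A19 was read at 1.17, 1.23 and 1.08 FPKM in the shNT libraries and at 0.177, 0.138 and 0.110 FPKM in the libraries labelled shGPR81. All 3 shNT libraries were far above all 3 of the other group, with no overlap. The log2 fold change was -2.39 (SE 0.20, limma, adjusted p = 0.00117, and 0.000709 to 0.0140 over 14 alternatives), and the shNT mean of 1.16 ± 0.0735 FPKM (SD, n = 3) was 8.16-fold above the mean of 0.142 ± 0.0336 FPKM (SD, n = 3). The values are whole multiples of 1 step, which gives 80, 86 and 74 reads in shNT and 13, 10 and 8 reads in the other group, and a ratio of 0.123 per unit depth with a Clopper-Pearson 95% interval of 0.0815 to 0.179 that covers counting error only. An exact two-sided permutation test of 3 against 3 libraries gave p = 0.1, the smallest it can give. In RNA from a whole culture, fewer cells that express a gene and less of its RNA per cell cannot be told apart.

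The surroundings of SLC6A19 gave no further call. No annotated gene overlaps it. Within 500000 bases on either side, 41 genes are annotated, 15 were in the table and 8 were tested. None of these 8 was called, and their log2 fold changes ranged from -0.64 to 0.09. Of the 8 values 7 were below 0, as were 6900 of the 14349 of all tested genes. Whether the region differs was not tested. SLC6A18, a related renal carrier, begins 269 bases after the end of SLC6A19 and was read at 0.0379, 0 and 0.0378 FPKM in shNT and was listed at 0 in the other 3 libraries, under the filter. The SLC6A19 protein needs a partner to reach the cell surface, which in the kidney is TMEM27 (collectrin). TMEM27 was read at 0.317, 0.361 and 0.264 FPKM in shNT and at 0.296, 0.200 and 0.0999 FPKM in the libraries labelled shGPR81 (log2 fold change -0.52, SE 0.31, limma, adjusted p = 0.428), and the 2 groups overlapped.

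**Figure D2:**
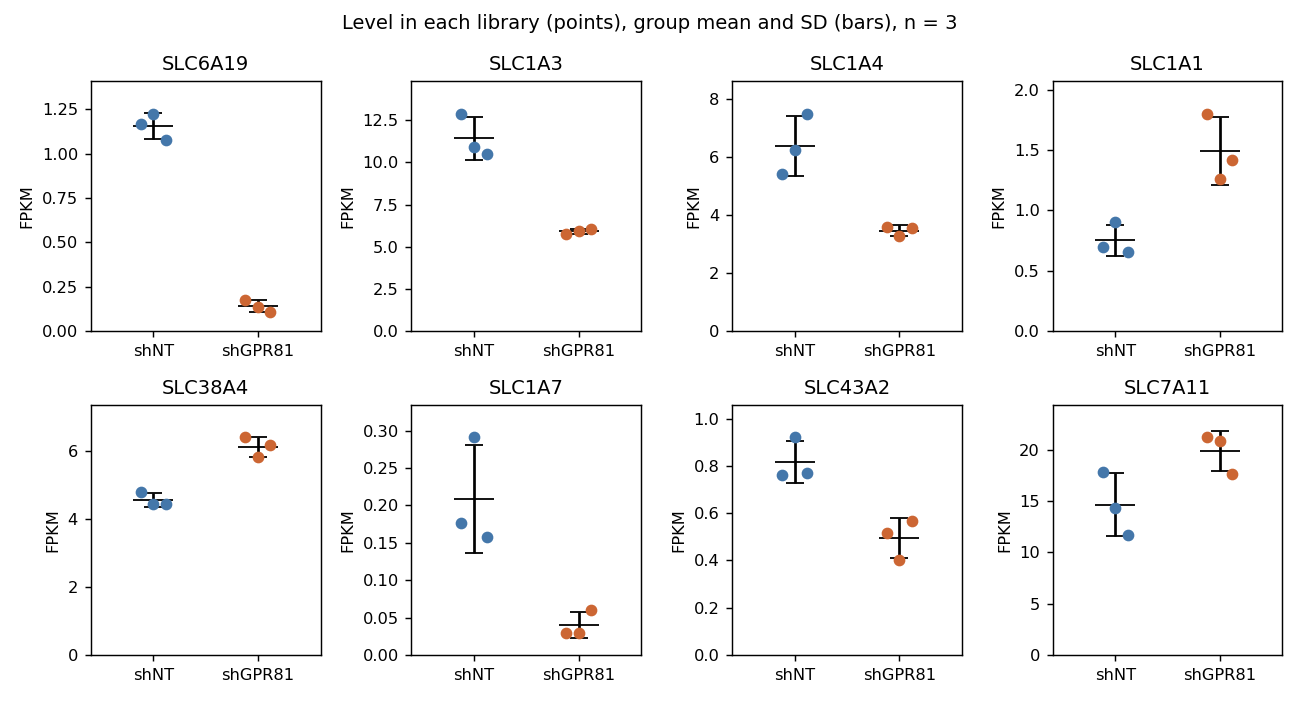
FPKM (vertical axis, linear from 0, 1 scale per panel) of 8 transporter genes in the 3 shNT and 3 shGPR81 libraries; points are libraries, the long bar is the mean and the short bars are 1 SD. The groups do not overlap in any panel except SLC7A11, which was added after its values were seen. The other genes were chosen for an adjusted limma p under 0.05, or for no overlap and a fold change above 1.5. Their lack of overlap thus largely follows from that choice. In SLC1A7 the lack of overlap follows from the filter. SLC6A19 falls from a mean of 1.16 to 0.142 FPKM.

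The glutamate carriers of SLC1 changed in opposite directions. SLC1A3 (EAAT1, the glial glutamate carrier) fell and SLC1A1 (EAAT3, the neuronal and epithelial one) rose, so that the carrier with the higher level lost and the one with the lower level gained. SLC1A3 lies on chromosome 5 at 36596690 to 36688436, plus strand, and SLC1A1 on chromosome 9 at 4490468 to 4587469, plus strand (GRCh37). In the promoters, the letters TGATGCAA, a form of the amino acid response element that the transcription factor ATF4 binds, were searched on both strands. They occurred in 0.772% of all 35116 windows and in 2 of the 66 windows found for 44 of the 59 members, namely those of SLC1A3 (chr5:36596440-36596537, plus strand, position -220) and SLC1A5 (chr19:47288101-47288228, minus strand, position -97). The SLC1A5 window belongs to an alternative RefSeq start that lies inside the gene, whose whole locus on GRCh37 is 47278140 to 47291851 on chromosome 19, and position -97 is counted from that inner start. Both sequences are shown 5′ to 3′ because they belong to the SLC1 family, with the motif in capitals.

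SLC1A3: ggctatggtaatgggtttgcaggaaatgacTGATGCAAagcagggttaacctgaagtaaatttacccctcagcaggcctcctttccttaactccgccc

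SLC1A5: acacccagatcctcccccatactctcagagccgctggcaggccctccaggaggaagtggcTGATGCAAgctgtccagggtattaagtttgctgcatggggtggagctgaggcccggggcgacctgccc

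A match of letters is not a measured binding site, and the absence of these letters elsewhere says only that they are not in the window searched. The FPKM of SLC1A3 were 12.9, 10.9 and 10.5 in shNT and 5.77, 5.95 and 6.06 in the libraries labelled shGPR81. Every shNT library was above every library of the other group, and the second group was tight. Its log2 fold change was -0.93 (SE 0.09, limma, adjusted p = 0.00213), or 1.93-fold lower in the FPKM means, and the call held without any 1 library (adjusted p 0.00162 to 0.0198). Against the fold change threshold itself (limma's treat) SLC6A19 was the only member past the test, with an adjusted p of 0.00735, and SLC1A3 had an adjusted p of 0.348. SLC1A3 overlaps 2 annotated long non-coding RNAs on the opposite strand. The libraries were stranded, but whether the counting used strand is not given in the sources used here, so such reads could be mixed, and this also holds for the opposite-strand neighbours of SLC1A1, SLC1A4, SLC1A7 and SLC38A4.

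SLC1A1 went the other way at a far lower level. It was read at 0.698, 0.901 and 0.656 FPKM in shNT and at 1.80, 1.26 and 1.42 FPKM in the libraries labelled shGPR81. The groups did not overlap, and shGPR81 replicate 1 was the highest. The log2 fold change was 0.90 (SE 0.19, limma, adjusted p = 0.0381). The recovered reads were 34, 45 and 32 against 94, 65 and 73, a ratio of 1.98 with a counting interval of 1.58 to 2.51. The call was close to the threshold and was lost on leaving out any 1 of the 6 libraries (log2 fold change 0.77 to 1.02, limma, adjusted p 0.0642 to 0.146). On chromosome 9 the median over 327 other genes, all with a higher mean level than SLC1A1, was 0.09 on the log2 scale. Its part in the SLC1A1 value was not tested.

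Within each library, the balance between both carriers differed between the groups. The ratio of SLC1A1 to SLC1A3 was 0.0541, 0.0827 and 0.0624 in shNT and 0.312, 0.212 and 0.234 in the libraries labelled shGPR81. The mean went from 0.0664 ± 0.0147 to 0.253 ± 0.0528 (SD, n = 3 each, exact two-sided permutation test, p = 0.1, the smallest possible). Both genes were already without overlap, in opposite directions. The ratios therefore could not overlap and this p was fixed, so the ratio is a description and no further test. This ratio and those below were chosen after the values were seen.

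The remaining glutamate carriers were near or at the floor. SLC1A7 (EAAT5, a carrier of the retina) was read at 0.177, 0.291 and 0.158 FPKM in shNT and at 0.0295, 0.0299 and 0.0598 FPKM in the libraries labelled shGPR81. All 3 values of the second group were under the 0.1 FPKM filter, which the gene passed only through shNT, so that the lack of overlap follows from the filter and is no result. At a log2 fold change of -1.13 (SE 0.31, limma, adjusted p = 0.0939) the gene was not called. It was called where no filter was set (limma, adjusted p = 0.0480, against 0.0480 to 0.265 over all alternatives but treat). SLC1A2, the main glutamate carrier of astrocytes, was at or under 0.00617 FPKM, and SLC1A6 was listed at 0.

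Of the neutral exchangers of SLC1, SLC1A4 fell and SLC1A5 did not pass the test. SLC1A4 (ASCT1), on chromosome 2 at 65215611 to 65250999, plus strand, was read at 5.43, 6.24 and 7.49 FPKM in shNT and at 3.57, 3.26 and 3.56 FPKM in the libraries labelled shGPR81. Again the groups did not overlap and the second was the tighter. The log2 fold change was -0.85 (SE 0.13, limma, adjusted p = 0.0101), or 1.84-fold lower in the FPKM means. The call was lost without shNT replicate 2 (limma, adjusted p = 0.0542) and without either of the first and second shGPR81 replicates (adjusted p = 0.0521 and 0.0558), while the log2 fold change stayed between -0.96 and -0.73 on leaving out any library.

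SLC1A5, the glutamine exchanger and the member with the highest shNT mean, was read at 104, 123 and 136 FPKM in shNT and at 98.1, 97.2 and 104 FPKM in the libraries labelled shGPR81. The groups overlapped by a narrow margin, since shGPR81 replicate 3 was just above shNT replicate 1. The log2 fold change was -0.27 (95% interval -0.49 to -0.05, limma, adjusted p = 0.168). Without shNT replicate 1 it was -0.37 (limma, adjusted p = 0.0128, against 0.0128 to 0.396 over all alternatives but treat), still under the 1.5-fold threshold. The ratio of SLC1A4 to SLC1A5 was 0.0527 ± 0.00231 in shNT and 0.0347 ± 0.00149 in the other group (SD, n = 3 each, no overlap, exact permutation p = 0.1). Summed over the 7 members of SLC1, levels were 123, 141 and 154 FPKM in shNT and 109, 108 and 115 FPKM in the libraries labelled shGPR81, without overlap. Most of this sum is SLC1A5, whose own groups overlapped. In the closest libraries, shNT replicate 1 and shGPR81 replicate 3, SLC1A5 was at 104.2 and 104.3 FPKM. SLC1A3 was at 12.9 and 6.06 FPKM there, and SLC1A4 at 5.43 and 3.56 FPKM. The lack of overlap of the sum thus comes from SLC1A3 and SLC1A4, reported above, and is no further result.

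As a family, SLC1 held 3 of the 4 calls. Of its 5 tested members 2 were lower and 1 was higher, beside 1.59% and 0.955% of all tested genes. The groups did not overlap in 4 (SLC1A7 among them, by the filter), beside 25.6% of all tested genes. The median log2 fold change was -0.85, beside 0.01 over all tested genes. This median counts SLC1A7, which passed the filter only through shNT. SLC6 gave 1 call among 4 tested members and the 5 other families gave none among 20. Whether the families differ was not tested.

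**Figure D3:**
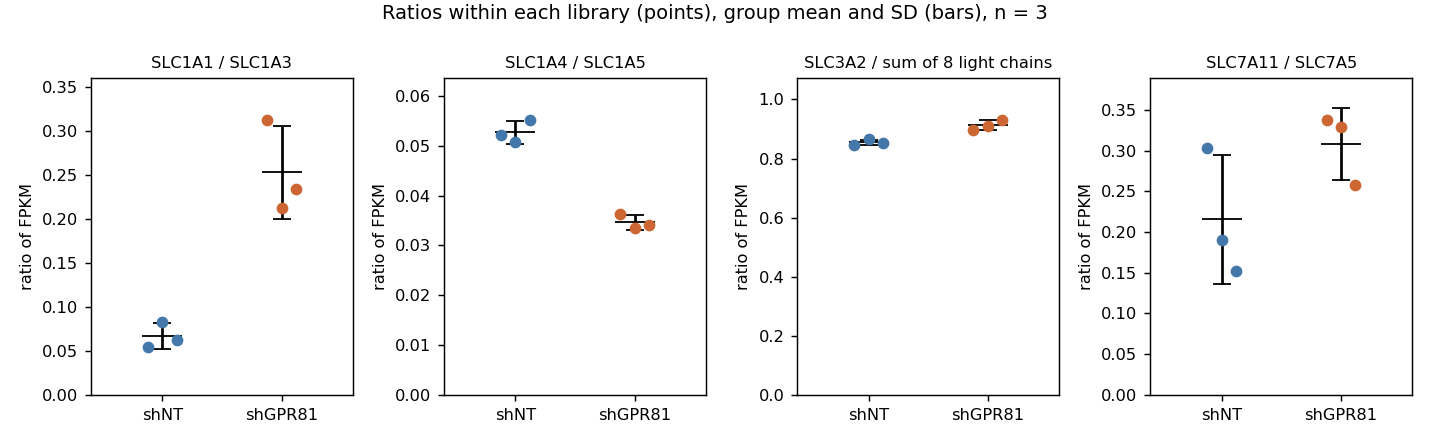
Ratios of FPKM within each library (vertical axes, no unit, from 0) in shNT and shGPR81, for 3 pairs of members and for SLC3A2 over the sum of 8 light chains; points are libraries, the long bar is the mean and the short bars are 1 SD, n = 3. The mean ratio of SLC1A1 to SLC1A3 is 0.0664 in shNT and 0.253 in shGPR81, where the lack of overlap follows from that of both genes. That of SLC1A4 to SLC1A5 is 0.0527 and 0.0347, without overlap, whereas SLC7A11 to SLC7A5 overlaps between groups.

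The heteromeric exchangers, built from a heavy chain of SLC3 and a light chain of SLC7, gave no call. SLC3A2 (CD98 heavy chain), which brings most light chains to the surface, was read at 70.7, 83.4 and 80.9 FPKM in shNT and at 81.7, 83.0 and 85.9 FPKM in the libraries labelled shGPR81. These ranges overlapped, and the log2 fold change was 0.10 (95% interval -0.07 to 0.26, limma, adjusted p = 0.524). SLC7A5, its leucine-carrying light chain, was read at 58.7, 75.4 and 77.1 FPKM in shNT and at 62.8, 63.5 and 68.6 FPKM in the libraries labelled shGPR81. The lowest of the 6 values was shNT replicate 1, and the log2 fold change was -0.11 (95% interval -0.35 to 0.14, limma, adjusted p = 0.666). Without shNT replicate 1 it was -0.23 (limma, adjusted p = 0.0459, against 0.0459 to 0.901 over all alternatives but treat), under the fold change threshold. The pseudogene copies SLC7A5P1 and SLC7A5P2 were listed at 0 and at 0.124 to 0.249 FPKM, and how reads shared with them were assigned was not tested.

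SLC7A11, the cystine and glutamate exchanger, is named here after its values were seen. It was read at 17.8, 14.4 and 11.7 FPKM in shNT and at 21.2, 20.9 and 17.6 FPKM in the libraries labelled shGPR81. Only shNT replicate 1 reached into the range of the other group, by a small margin. The log2 fold change was 0.46 (SE 0.15, limma, adjusted p = 0.146), and without shNT replicate 1 it was 0.61, past both thresholds (adjusted p = 0.0259, against 0.0259 to 0.379 over all alternatives but treat). The ratio of SLC7A11 to SLC7A5 was 0.215 ± 0.0788 in shNT and 0.308 ± 0.0440 in the other group (SD, n = 3 each, exact permutation p = 0.2).

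The other light chains were lower in level. SLC7A6 (y+LAT2, an exchanger of arginine for neutral amino acids) had a mean of 6.41 ± 0.479 FPKM in shNT and 6.42 ± 0.505 FPKM in the libraries labelled shGPR81. SLC7A10 (a carrier of small neutral amino acids and D-serine) rested on 4, 7 and 1 reads against 6, 1 and 1 reads, a ratio of 0.633 with a wide counting interval of 0.224 to 1.68. SLC7A7 and SLC7A9, light chains of the kidney and intestine, were under the filter, and SLC7A8 and SLC7A13 were listed at 0. The other heavy chain, SLC3A1, which pairs with SLC7A9, gave 4, 7 and 7 reads against 10, 8 and 5 (ratio 1.21, counting interval 0.627 to 2.39).

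The summed level of the light chains was close in both groups. Their 8 values summed to 91.6 ± 6.95 FPKM in shNT and 91.5 ± 0.646 FPKM in the libraries labelled shGPR81 (SD, n = 3 each, exact permutation p = 1). SLC3A2 divided by this sum was 0.845, 0.865 and 0.853 in shNT and 0.897, 0.912 and 0.932 in the other group. The ratios did not overlap, although the step was small (0.854 against 0.913 in the means, exact permutation p = 0.1, the smallest possible).

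The cationic amino acid carriers of SLC7, which supply arginine and lysine, gave no call. SLC7A1 (CAT1) had a mean of 23.5 ± 1.36 FPKM in shNT and 22.1 ± 0.878 FPKM in the libraries labelled shGPR81. SLC7A2 (CAT2) was at 9.52 ± 0.520 against 7.89 ± 0.335 FPKM (SD, n = 3 each), without overlap, at a log2 fold change of -0.27 (SE 0.07, limma, adjusted p = 0.0938). SLC7A14 did not exceed 0.00713 FPKM, and SLC7A3 and SLC7A4 were listed at 0.

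Outside SLC6A19, the SLC6 carriers that were tested were those of taurine, creatine and glycine, and none was called. SLC6A6, the taurine carrier and the family's highest member, was read at 15.2, 16.6 and 14.3 FPKM in shNT and at 18.4, 18.5 and 15.2 FPKM in the libraries labelled shGPR81. The value of shGPR81 replicate 3 lay within the shNT range, and the log2 fold change was 0.17 (95% interval -0.06 to 0.39, limma, adjusted p = 0.404). SLC6A8, the creatine carrier, was at 1.46 ± 0.249 and 1.46 ± 0.261 FPKM (SD, n = 3 each, 95% interval of the log2 fold change -0.42 to 0.42). SLC6A9, the glycine carrier GlyT1, was at 3.60 ± 0.760 against 4.90 ± 0.350 FPKM (SD, n = 3 each), without overlap, and was not called (log2 fold change 0.45, SE 0.16, limma, adjusted p = 0.175).

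The classical neurotransmitter carriers were close to absent from the table. Of the monoamine carriers, SLC6A2 (noradrenaline) was listed at 0, SLC6A3 (dopamine) was above 0 in 1 shNT library, and SLC6A4 (serotonin) gave 0, 3 and 0 reads in shNT and 3, 5 and 3 reads in the libraries labelled shGPR81. The ratio of SLC6A4 reads was 3.48 with a counting interval of 0.920 to 19.4, which includes no difference. The GABA carrier SLC6A11 and the betaine carrier SLC6A12 were listed at 0, and SLC6A13 was above 0 in 1 library. Among the remaining amino acid carriers of SLC6, SLC6A14, a broad carrier of neutral and cationic amino acids, gave 10, 6 and 5 against 14, 4 and 4 reads. SLC6A7, SLC6A16 and SLC6A20 reached at most 0.0575 FPKM, and SLC6A5, SLC6A15 and SLC6A17 were listed at 0.

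Of the sodium-coupled neutral carriers of SLC38, SLC38A2 and SLC38A1 were among the most abundant members, and SLC38A4 was the only one of the 7 tested with an adjusted p under 0.05. SLC38A4 (SNAT4), on chromosome 12 at 47158544 to 47226191, minus strand, was read at 4.78, 4.44 and 4.44 FPKM in shNT and at 6.40, 5.82 and 6.16 FPKM in the libraries labelled shGPR81. Both groups were tight and did not overlap. At a log2 fold change of 0.42 (SE 0.08, limma, adjusted p = 0.0280) it stayed under the 1.5-fold threshold, and on leaving out 1 library the adjusted p was between 0.0244 and 0.130.

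SLC38A2 (SNAT2), which takes up glutamine and alanine and is induced when amino acids are scarce, was read at 101, 89.7 and 84.9 FPKM in shNT and at 99.1, 99.03 and 91.0 FPKM in the libraries labelled shGPR81. The second group lay inside the range of the first, and the log2 fold change was 0.07 (95% interval -0.10 to 0.24, limma, adjusted p = 0.662). SLC38A1 (SNAT1), its close relative, was at 44.7 ± 3.60 against 43.6 ± 2.04 FPKM (SD, n = 3 each). SLC38A10 was at 11.95 ± 1.07 against 13.9 ± 0.645 FPKM, without overlap and not called (log2 fold change 0.21, SE 0.08, limma, adjusted p = 0.211).

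The lysosomal members gave no call. SLC38A9, which senses arginine in the lysosome for the growth kinase mTORC1, was at 9.21 ± 1.35 against 8.52 ± 0.178 FPKM, and SLC38A7, which exports glutamine from lysosomes, was at 2.81 ± 0.266 against 2.63 ± 0.308 FPKM (SD, n = 3 each). SLC38A6 was at 4.61 ± 0.326 and 4.68 ± 0.794 FPKM. SLC38A5 was above 0 in 1 shNT library, and SLC38A3, SLC38A8 and SLC38A11 were listed at 0. Summed over SLC38, the level was 170 ± 12.4 FPKM in shNT and 176 ± 6.26 FPKM in the other group (SD, n = 3 each, exact permutation p = 0.5).

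Of the SLC36 carriers, SLC36A4 and SLC36A1 were tested. SLC36A4, a carrier of proline and tryptophan, was read at 8.15, 6.90 and 7.12 FPKM in shNT and at 7.69, 7.60 and 7.45 FPKM in the libraries labelled shGPR81, with the second group inside the first. Its log2 fold change was 0.04 (95% interval -0.15 to 0.23, limma, adjusted p = 0.852). SLC36A1, which exports small amino acids from lysosomes, was at 4.08 ± 0.223 against 4.26 ± 0.285 FPKM (SD, n = 3 each). SLC36A2 gave 2, 2 and 1 reads against 5, 1 and 1, and SLC36A3 was listed at 0.

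The SLC43 carriers gave no call. SLC43A2 (LAT4), which carries large neutral amino acids without an exchange partner, was read at 0.762, 0.920 and 0.770 FPKM in shNT and at 0.517, 0.403 and 0.566 FPKM in the libraries labelled shGPR81. The groups did not overlap, with 84, 104 and 85 reads against 61, 47 and 66. The read ratio was 0.605 (counting interval 0.498 to 0.735), and the log2 fold change was -0.63 (SE 0.19, limma, adjusted p = 0.113). The interval covers counting alone, whereas the limma test includes the spread between libraries.

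SLC43A3, which carries purine nucleobases rather than amino acids, was the family's highest member at 105, 112 and 124 FPKM in shNT and 109, 111 and 111 FPKM in the libraries labelled shGPR81. The second group lay inside the first, and the log2 fold change was -0.04 (95% interval -0.19 to 0.12, limma, adjusted p = 0.815). SLC43A1 (LAT3), a relative of SLC43A2, was at 11.7 ± 0.169 against 10.6 ± 1.26 FPKM (SD, n = 3 each).

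Levels of the members spanned 3 ranges in shNT. There were 12 members at 10 FPKM or more, 12 at 1 to 10 FPKM and 5 tested members under 1 FPKM. From the top, the order of the shNT means was SLC1A5, SLC43A3, SLC38A2, SLC3A2, SLC7A5, SLC38A1, SLC7A1, SLC6A6, SLC7A11, SLC38A10, SLC43A1 and SLC1A3. The shNT ranges of neighbours in the whole order overlapped in 17 of 28 pairs, among them SLC1A5 with SLC43A3 and SLC3A2 with SLC7A5, so only the coarse order can be read. Of the 4 called genes, SLC1A3 and SLC1A4 stood in the upper and middle ranges while SLC6A19 and SLC1A1 stood near 1 FPKM.

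**Figure D4:**
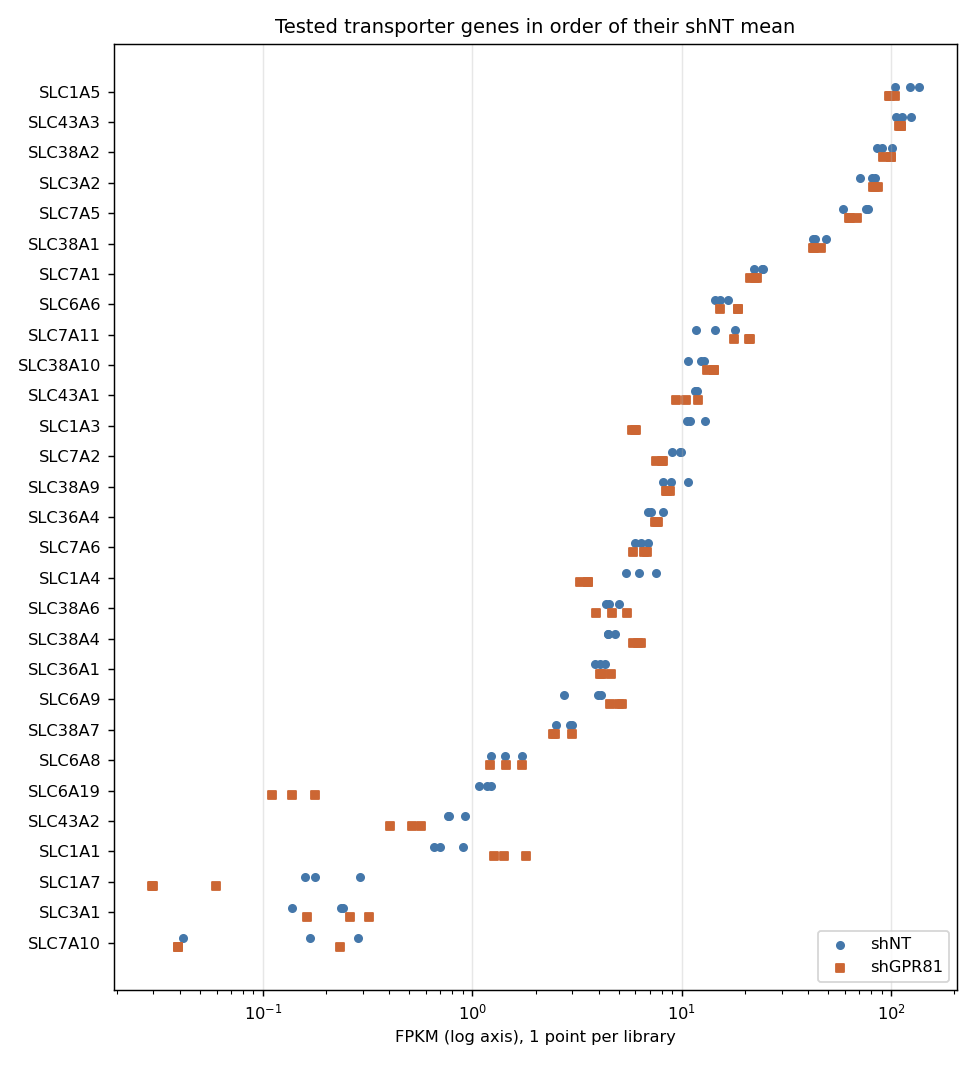
FPKM (horizontal axis, log scale) of the 29 tested transporter genes (vertical axis, in order of their shNT mean) in each shNT library (circles) and shGPR81 library (squares). The first 5 genes hold 70.6% of the summed level in shNT and 70.1% in shGPR81. The called genes SLC1A3, SLC1A4 and SLC6A19 lie further left and SLC1A1 further right in shGPR81. The symbols of the uncalled SLC1A7 and SLC43A2 also stand apart, for SLC1A7 by the filter.

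The total over all 59 members differed little between groups. It was 643, 681 and 692 FPKM in shNT and 644, 655 and 650 FPKM in the libraries labelled shGPR81. The groups overlapped, and the means of 672 ± 25.7 and 649 ± 5.52 FPKM (SD, n = 3 each) gave an exact permutation p of 0.4. The 5 genes that lead the order made up 70.6% and 70.1% of it, so this total says little about the carriers at low levels.

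Genes around the carriers were read from 4 lists, with members left out. The heteromer and trafficking partners gave no call among 5 tested, with a median log2 fold change of 0.04. Amino acid sensing by mTORC1 gave 1 lower call among 39 tested, beside 1.59% of all tested genes, and its median was 0.03. The single call was RRAGD, a Rag GTPase that recruits mTORC1 to lysosomes, at 2.86, 3.04 and 2.78 FPKM in shNT and 0.832, 0.581 and 0.740 FPKM in the libraries labelled shGPR81 (log2 fold change -1.88, SE 0.15, limma, adjusted p = 0.00106). Its groups stood far apart, while SLC38A9, which acts beside the Rag proteins, was not called.

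The list for the amino acid response of ATF4 gave 2 lower calls among 41 tested, beside 1.59% of all tested genes. Its median log2 fold change was -0.07. The list also holds ATF4 itself and the regulators EIF2AK4, EIF2AK3 and IMPACT, so its values do not stand for ATF4 targets alone. Of the 41 values 29 were below 0, as were 6900 of the 14349 of all tested genes. The calls were GDF15, a stress-induced cytokine, and TRIB3, a pseudokinase that feeds back on ATF4. GDF15 was read at 23.5, 34.2 and 34.2 FPKM in shNT and at 9.55, 7.19 and 8.77 FPKM in the libraries labelled shGPR81 (log2 fold change -1.82, SE 0.17, limma, adjusted p = 0.00171). TRIB3 was read at 12.7, 13.6 and 16.04 against 8.47, 8.77 and 8.50 FPKM (log2 fold change -0.70, SE 0.09, limma, adjusted p = 0.00673). TRIB3 lies on chromosome 20, where 253 genes past a further cut on the mean level had a median of -0.40 on the log2 scale. No transporter member lies on that chromosome. ATF4 itself was at 152 ± 5.45 and 150 ± 6.19 FPKM (SD, n = 3 each, log2 fold change -0.02, SE 0.05, limma, adjusted p = 0.888).

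Of the genes of glutamine and glutathione metabolism, 1 of 32 tested rose, beside 0.955% of all tested genes, and none fell, with a median log2 fold change of -0.02. GLUL, the enzyme that makes glutamine from glutamate and ammonia, was read at 5.86, 5.83 and 6.19 FPKM in shNT and at 11.6, 12.3 and 12.2 FPKM in the libraries labelled shGPR81. The groups were tight and far apart, at a log2 fold change of 1.001 (SE 0.07, limma, adjusted p = 0.000629).

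**Figure D5:**
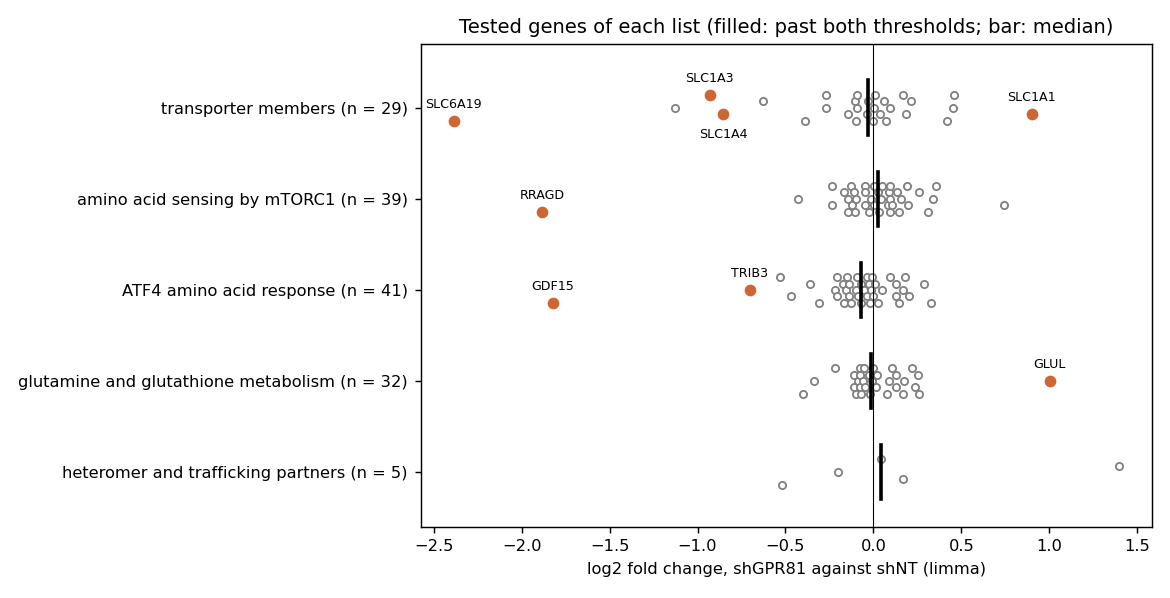
Log2 fold change (horizontal axis, libraries labelled shGPR81 against shNT) of every tested gene of the transporter members and of 4 lists around them (vertical axis); filled named points are called, open points are not, and the black bar is the median. The 5 medians lie between -0.07 and 0.04, and the named genes SLC6A19, RRAGD, GDF15 and GLUL lie far from them.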

How the data were processed

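RNA-seq of 3 shNT and 3 shGPR81 libraries was analysed. Per the study's methods, stranded libraries gave single-end reads, 75 bases long, that were aligned to human hg19. The submitters' processing notes name TopHat2 2.0.13, Bowtie2 2.2.3, SAMtools 0.1.19 and Cuffnorm 2.2.1 and a mouse build, and the human gene symbols were taken as GRCh37. The authors deposited FPKM, 1 value per symbol and library, of which 8456 symbols are 0 throughout. The annotation and strand setting are not given in the sources used here.

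The log2(FPKM + 0.1) values were tested in limma 3.58.1 (R 4.3.3, lmFit and eBayes with trend). Tested were the 14349 genes that reached 0.1 FPKM in 3 or more libraries. The added 0.1 understates fold changes of low genes. Thresholds were an adjusted p (Benjamini-Hochberg) of 0.05 and a fold change of 1.5. The script was tested on simulated data. The design had allowed for counts, but the table holds FPKM, so no count model was run. Reads were recovered for genes whose FPKM are whole multiples of 1 step within 0.0001 (588 of 1594 genes tried); absolute depth is not stated, and intervals and floors cover counting error only.

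Named with every library value were members with an adjusted p under 0.05, members without overlap and a fold change above 1.5, and the highest member of each family. Loci are from GENCODE 44 on GRCh37. Promoter windows are from RefSeq's GRCh38.p14 table, and each sequence shown matched GRCh37 exactly at 1 place on its chromosome. Members and lists were chosen with earlier results of these data known. Alternatives tried were omission of each library, a replicate block, filters of 1 FPKM and none, pseudocounts of 1 and 0.01, median centring, quantile normalization and treat. A few genes and 1 further list are not reported here.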

Additional observations from a re-analysis of the deposited data

How the results depend on the processing

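SLC6A19 was called under all 14 alternatives, with a log2 fold change of -2.96 (pseudocount 0.01) to -0.92 (pseudocount 1), and SLC1A3 under 13. Under treat, 1 member was lower and 0 were higher, and 46 and 9 of all tested genes. The count of members higher, 1, was 0 with no filter, with a pseudocount of 1 and with the replicate block, and 0 to 1 on leaving out 1 library, where the 1 was SLC7A11 without shNT replicate 1 and not SLC1A1. Members lower were 2 to 3 on leaving out 1 library and 4 with no filter, which added SLC1A7. A pseudocount of 1 left 142 genes lower and 75 higher of all tested. On leaving out 1 library, all genes called lower were 121 (without shNT replicate 2), 133 (without shGPR81 replicate 1) and 135 (without shGPR81 replicate 2) to 256 and those called higher 65 (without shGPR81 replicate 1), 66 and 85 (without shGPR81 replicates 2 and 3) and 81 (without shNT replicate 2) to 152. SLC6A8, SLC7A6, SLC36A4, SLC38A1, SLC38A6, SLC38A9 and SLC43A3, none of them called, changed sign under some alternatives. The causes were not tested.

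The replicate numbers were checked as a pairing: same-numbered libraries correlated at 0.120, 0.022 and 0.006 in their deviations over 14349 genes, and 3 of 6 libraries correlated best with their own number, so the numbers were not taken as pairs. With the replicate block 3 members were lower and 0 higher (SLC1A1, limma, adjusted p = 0.0764), and 197 and 115 of all tested genes. The 14 members under the filter rest on few reads (0 to 14 per library in the 3 of them with recovered reads), which limits what could be seen there.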
